A study of Mus musculus with 9 samples.

Results

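The rhythmic PPARγ binding sites described here are those whose binding was highest around dusk. Each site is a peak of a chromatin immunoprecipitation (ChIP)-sequencing experiment, and its value is a normalized count, the reads counted in the peak divided by a size factor of the library. Peaks were selected on a 24-h cosine fitted to the log2 normalized counts. Members have a mean raw count of at least 100, an amplitude of at least 0.3 on the log2 scale, an R2 of at least 0.7 and a phase, the fitted time of highest binding, from 9 to below 15 h after lights on. This rule chose 1516 of 52193 peaks with a mean raw count of at least 100 (2.90%), out of 66066 peaks in all. Since the rule used the 8 counts of each peak, amplitudes, phases and time courses are given as descriptions without a test.

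Interscapular brown adipose tissue (iBAT) was collected from male C57BL/6J mice, 10 weeks old, at Zeitgeber time (ZT) 0, 3, 6, 9, 12, 15, 18 and 21, where ZT0 is lights on and ZT12 is lights off. All groups were untreated wild type mice that differed only in the time of collection. Tissue of 8 mice was pooled into 1 library per time point and precipitated with 8 µg of PPARγ antibody, so no time point has a replicate and differences between mice or pools cannot be estimated. Whole tissue was used, and a change in binding per cell and a change in the share of cells of a type cannot be told apart.

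PPARγ is a nuclear receptor that adipocytes need to form and to store lipid. It binds DNA together with RXR, classically at a direct repeat of the hexamer AGGTCA with 1 base between the copies (DR1). Around dusk, when mice become active, several other transcription factors also change in level. PAR bZIP proteins (DBP, TEF and HLF) activate and NFIL3 represses genes through the D-box, and the glucocorticoid receptor acts through a palindrome of GNACANNNTGTNC when corticosterone rises before the active phase.

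The libraries held 29572225 to 34264812 reads in peaks, and size factors ranged from 0.964 (ZT18) to 1.05 (ZT3). The 10% of peaks with most reads took 44.2% (ZT15) to 48.0% (ZT6) of the reads. Peaks lay within 50 kb of a start site of 9 of 10 brown adipocyte markers, and the median of the highest count per kb at these markers was 873. The same value was 447 for 2 of 6 skeletal muscle markers, 162 for 1 of 6 leukocyte markers, 309 for 5 of 5 endothelial markers and 390 for 3 of 5 neuron or Schwann cell markers, and the part of other cell types in the results was not tested.

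The D-box, written here as TTANGTAA, is shown first because, among 20 motifs searched, its share in members exceeded that in all peaks by the most. Shown are 40 bases around the D-box nearest to the centre of 7 of the 10 members with the largest amplitudes, read from mm10 (GRCm38) in the direction of the match, with the match in capitals. Members are called by the gene of the nearest start site.
Shisa6, chr11:66442222-66442261, minus strand: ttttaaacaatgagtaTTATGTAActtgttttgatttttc
Rragc, chr4:123977908-123977947, plus strand: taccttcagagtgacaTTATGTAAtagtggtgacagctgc
Rspo3, chr10:29672446-29672485, plus strand: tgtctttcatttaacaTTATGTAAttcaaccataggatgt
Cstf3, chr2:104594921-104594960, minus strand: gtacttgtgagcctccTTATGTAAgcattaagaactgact
Mir7661, chr6:108486917-108486956, plus strand: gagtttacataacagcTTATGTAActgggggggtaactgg
1700019C18Rik, chr13:35413964-35414003, plus strand: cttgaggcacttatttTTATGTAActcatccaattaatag
Fam124b, chr1:80244345-80244384, plus strand: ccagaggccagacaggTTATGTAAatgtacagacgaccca

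Of the 10 members with the largest amplitude, 8 held a D-box anywhere in the peak, as did 5 of the 10 with the highest mean. Over whole peaks, the D-box was in 45.1% of members and in 14.7% of all peaks with a mean raw count of at least 100. The free base was T in the 7 shown. The eighth, near 2010010A06Rik with an amplitude of 1.10, held 3 D-boxes, whose sequence is not shown and whose free base is not reported here. Of the 8 members near clock genes, only those near Per2, Ciart, Rora and Nfil3 are shown. The D-box nearest to the centre had the T form at Per2 and Ciart and the form with A at Rora and Nfil3. D-boxes in the other members near clock genes are not reported here. The match lay 191 bases from the peak centre at Per2, 332 at Ciart and 264 at Rora, outside the central 300 bases. At Nfil3 it lay 59 bases from the centre, inside them.
Per2, chr1:91442608-91442647, minus strand: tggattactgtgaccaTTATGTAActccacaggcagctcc
Ciart, chr3:95882879-95882918, minus strand: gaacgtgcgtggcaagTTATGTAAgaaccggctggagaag
Rora, chr9:69194800-69194839, plus strand: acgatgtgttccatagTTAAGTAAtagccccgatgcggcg
Nfil3, chr13:53003612-53003651, plus strand: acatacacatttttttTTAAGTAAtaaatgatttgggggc

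Glucocorticoid response elements (GRE) are shown for the 4 named members of largest amplitude that held one, with the 13 bases of the element in capitals. The match lay 190 bases from the peak centre at Ugt2a1 and 307 at the Tsc22d3 member of amplitude 0.78, outside the central 300 bases. It lay 1 base from the centre at the Tsc22d3 member of amplitude 0.85 and 58 at Akap13, inside them. No GRE was found in the other Tsc22d3 members, and the one of amplitude 0.68 held 3 D-boxes.
Ugt2a1, chr5:87499142-87499186, plus strand: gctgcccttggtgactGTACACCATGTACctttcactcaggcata
Tsc22d3, chrX:140507806-140507850, plus strand: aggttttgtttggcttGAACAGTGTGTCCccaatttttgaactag
Tsc22d3, chrX:140505950-140505994, plus strand: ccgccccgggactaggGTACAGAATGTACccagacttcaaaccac
Akap13, chr7:75399424-75399468, plus strand: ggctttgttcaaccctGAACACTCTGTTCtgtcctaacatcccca

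Binding at the members was lowest in the early light phase and highest around lights off. The median log2 deviation from a peak's own mean was -0.34, -0.35 and -0.16 in the libraries of ZT0, ZT3 and ZT6. It was 0.21, 0.42 and 0.41 from ZT9 to ZT15, and 0.07 and -0.22 in the remaining dark-phase libraries. The highest library was ZT15 for 691 members (45.6%), ZT12 for 627 (41.4%) and ZT9 for 163 (10.8%), and the lowest was ZT3 for 647 (42.7%) and ZT0 for 506 (33.4%). In 1392 members (91.8%) the 3 highest libraries were neighbours in time, a course that the required R2 and amplitude favour. The members took 1.30% (95% Wilson interval 1.29 to 1.30) of the reads in peaks at ZT3 and 2.25% (2.24 to 2.25) at ZT12, where the intervals cover counting error only. The direction of this difference follows from the rule, which chose the members on the same counts.

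**Figure D1:**
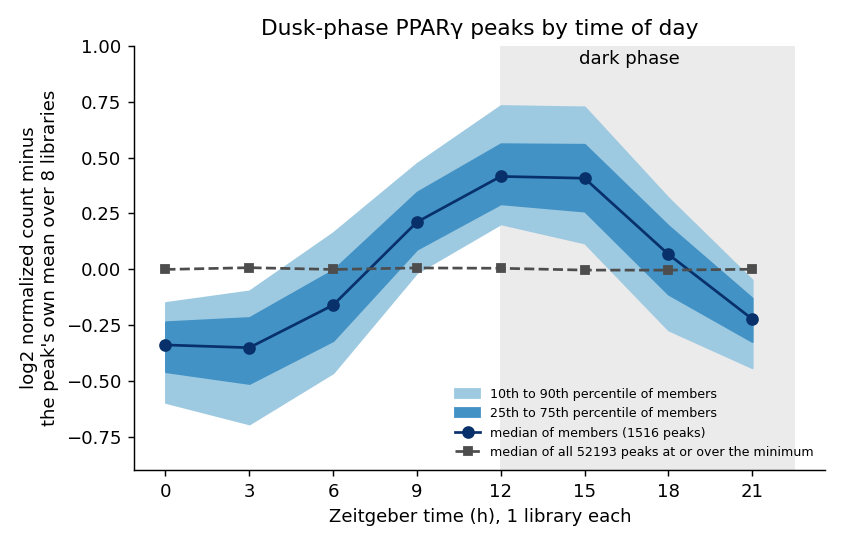
Log2 normalized count minus each peak's own mean (y axis) against Zeitgeber time in h (x axis), with 1 library per time point. The dark line is the median of the 1516 members, the bands span the 25th to 75th and the 10th to 90th percentile of members, the dashed line is the median of all 52193 peaks, and grey shading marks the dark phase. The member median runs from -0.35 at ZT3 to 0.42 at ZT12, a course set by the rule. The median of all peaks stays between -0.00395 and 0.00705 because the size factors hold it level. A change shared by all peaks would therefore not be seen.

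The amplitudes had a median of 0.43 and reached 1.24, and 80 members (5.28%) were at 0.8 or above. The highest library exceeded the lowest by a median of 2.01-fold, and by 4-fold or more in 38 members (2.51%). Phases were uneven within the window, with 111 members between 9 and 10 h, 429 (28.3%) between 13 and 14 h and 427 (28.2%) between 14 and 15 h. The standard error of the phase, from the departures from the cosine, had a median of 0.728 h. At the edges of the rule, the member with the lowest amplitude, near Dnase1l2, had 0.300002 and the peak just outside, near Zc3h3, had 0.2997. The R2 was 0.7001 for the member near Oxsm and 0.6999 for the peak left out near Gm805. The mean raw count was 100 for the member near Sar1b and 99.75 for the peak left out near Gm10248. The first and last phases inside were 9.01 h near Ostm1 and 14.998 h near Gm14634, and the nearest outside were 8.96 h near Serping1 and 15.002 h near Cdh15.

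The member with the largest amplitude lay in intron 2 of Shisa6, at chr11:66441685-66442965. Its normalized counts were 44.1, 47.6, 87.3, 150, 239, 248, 85.0 and 69.9 from ZT0 to ZT21, with an amplitude of 1.24 ± 0.13 (SE of the fit) and a phase of 12.7 h. ZT12 and ZT15 were high and all other libraries lower. The 95% Wilson intervals, for counting error only, were 32.8 to 59.4 at ZT0 and 219.5 to 280.4 at ZT15. The intergenic member 60479 bases downstream of a start site of Rragc, which encodes a GTPase of amino acid sensing, gave 67.7, 41.9, 110, 199, 323, 194, 115 and 66.8, a single maximum at ZT12. The member with the largest ratio of highest to lowest library, 8.67-fold, lay 8483 bases upstream of Ugt2a1. Its counts were 191, 112, 234, 287, 974, 523, 329 and 228, so that the ZT12 library stood above a smoother course, and its amplitude had the SE of 0.24. In intron 2 of Slc25a33, a mitochondrial pyrimidine nucleotide carrier gene, the counts of 126, 125, 239, 425, 580, 465, 305 and 195 followed the cosine closely (R2 0.984), and neither a D-box, a GRE nor a DR1 was found in the peak.

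The members with most reads had smaller amplitudes. The strongest, an intergenic peak of chr15:81833104-81838054 nearest to Tob2, had counts of 2233, 3391, 4344, 4754, 5350, 3442, 2474 and 2953, an amplitude of 0.54 ± 0.10 and an early phase of 9.60 h. In intron 3 of Zbtb16, a glucocorticoid-induced zinc finger gene, the counts were 2664, 2544, 3228, 3216, 4784, 3366, 3264 and 2836, and only ZT12 stood apart. At Usp2, a deubiquitinase gene with clock-controlled expression, the counts were 1500, 1753, 2004, 2330, 2756, 2251, 1923 and 1793.

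**Figure D2:**
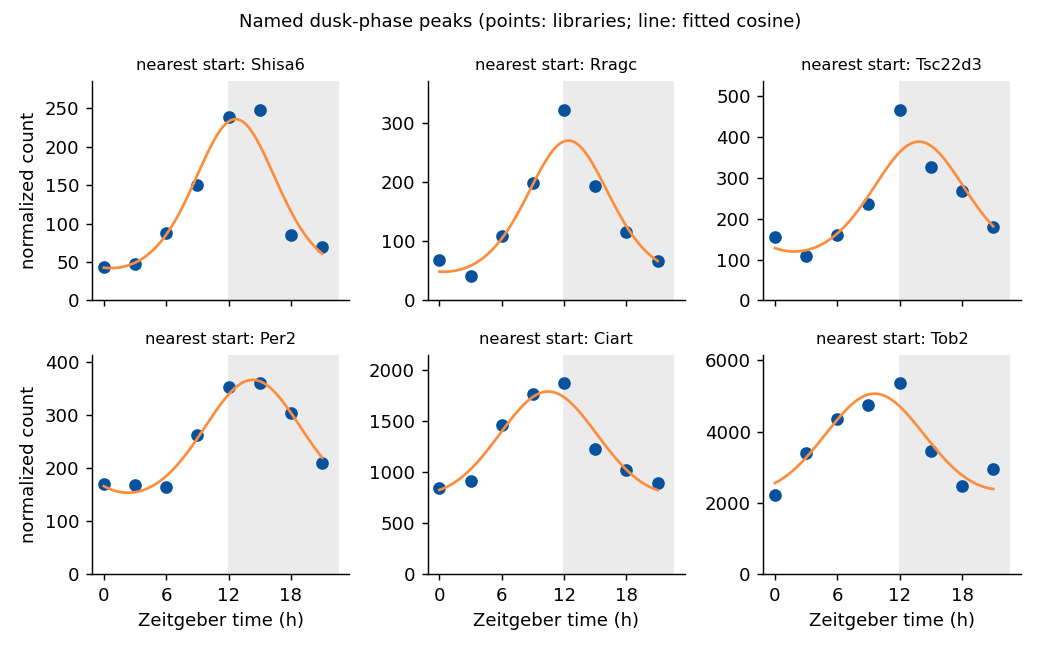
Normalized counts (y axis, from 0) against Zeitgeber time in h (x axis) for 6 named members, 1 panel each. Points are single libraries, the line is the fitted 24-h cosine and grey shading marks the dark phase. The peaks near Shisa6 and Per2 are highest at ZT15, and those near Rragc, Tsc22d3, Ciart and Tob2 at ZT12.

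Members lay away from start sites. Within 1 kb of a start site were 42 members (2.77%), against 19.3% of all peaks with a mean raw count of at least 100, 4.13% of rhythmic peaks with a dawn phase, 5.24% with a midday phase and 9.33% with a midnight phase. The median distance to the nearest start site was 24741 bases for members and 15570 for all these peaks. By their centre, 877 members (57.8%) were in introns and 583 (38.5%) intergenic, and 49.7% of all these peaks were in introns. The central 300 bases of members had a median GC content of 45.3%, against 49.0% in all these peaks. Rhythmic peaks with a midnight phase were alike, with 58.0% in introns, 36.0% intergenic and a median GC content of 45.7%. The median distance was 22521 bases with a midnight phase, 23011.5 with a midday phase and 31831.5 with a dawn phase.

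The D-box was found in the central 300 bases of 335 members (22.1%) and of 3.88% of all peaks with a mean raw count of at least 100. The share was 1.11% in rhythmic peaks with a dawn phase, 3.21% with a midday phase and 8.06% with a midnight phase. Both strands were searched with no mismatch. Binding counts chose the members, but the sequence was not part of the rule. The members' lower GC content moves with this share, as D-boxes were more frequent in windows of low GC. Within windows of 45 to 50% GC, 21.3% of members and 3.18% of the other peaks held a D-box, and above 55% GC the shares were 7.87% and 0.665%.

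Of 380 matches in the members, 302 (79.5%) had T at the free position, against 728 of 1827 (39.8%) in the other peaks. A T form was in 285 members (18.8%) and in 1.42% of the other peaks, whereas the A form was in 1.65% and 1.08%. By class of rhythmic peak, the T form was in 0.317% with a dawn phase, 0.908% with a midday phase and 5.14% with a midnight phase. The form with C is its own reverse complement and was counted on both strands.

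By phase in bins of 2 h, the share of rhythmic peaks with a D-box was 7.47% at 8 to 10 h, 18.2% at 10 to 12 h, 26.2% at 12 to 14 h, 20.8% at 14 to 16 h and 6.83% at 16 to 18 h, and no match was found in the 136 peaks at 0 to 2 h. The GRE was earlier, with 5.45% at 10 to 12 h, 3.84% at 12 to 14 h and 1.54% at 14 to 16 h. Over all members the GRE share was 3.50% (53 members) against 0.791% of all peaks with a mean raw count of at least 100. Among members, the D-box share was 18.2% at amplitudes of 0.3 to 0.4, 21.2% at 0.4 to 0.6, 32.2% at 0.6 to 0.8 and 36.2% of 80 members from 0.8. Members with a D-box also had fewer reads, with a median mean raw count of 186 against 250 without it. Their peaks were narrower, with a median width of 827 against 1060 bases. The part of read number and width in the trend with amplitude was not tested.

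**Figure D3:**
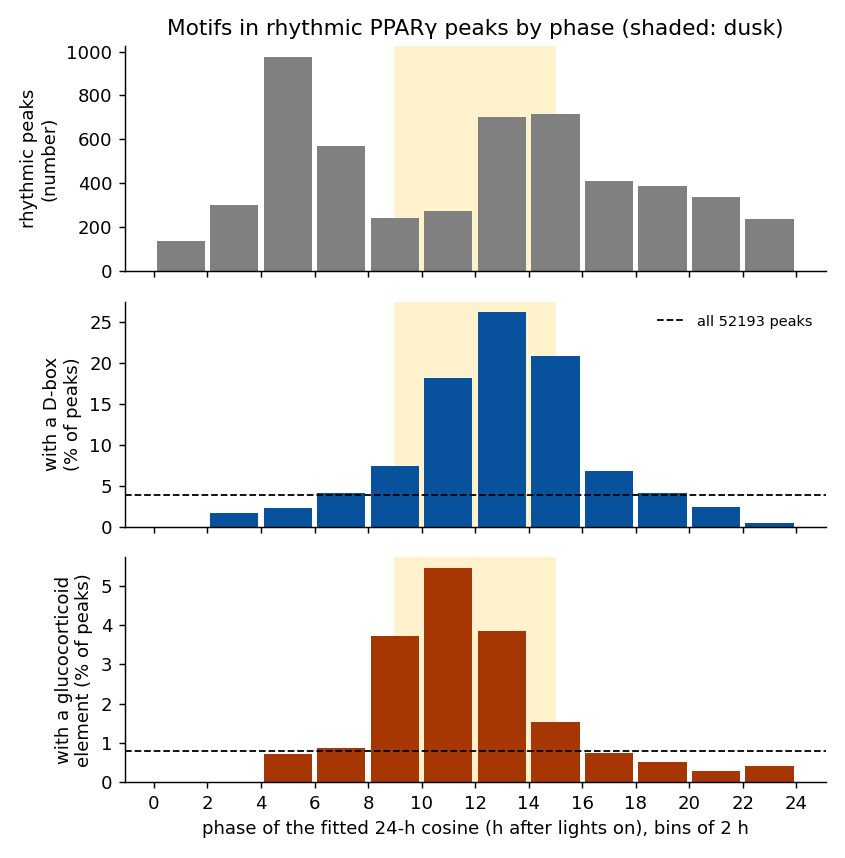
Rhythmic peaks by the phase of the fitted cosine in bins of 2 h (x axis, h after lights on). The bars give the number of rhythmic peaks (top), the percentage with a D-box (middle) and the percentage with a glucocorticoid element (bottom) in the central 300 bases; dashed lines are the shares of all 52193 peaks and the shaded span is the dusk window. The D-box share is highest at 12 to 14 h (26.2%) and the glucocorticoid element share at 10 to 12 h (5.45%).

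D-box matches were also concentrated at the peak centre. In members, the bins within 50 bases of the centre held 5.08 and 5.01 matches per 100 peaks that cover them, and the bins at 400 to 450 bases held 1.23 and 2.02. The other peaks had 0.675 and 0.620 at the centre and 0.669 and 0.636 at 400 to 450 bases. Within 100 bases of the centre were 33.4% of 867 matches in members and 14.9% of 8468 in the other peaks.

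**Figure D4:**
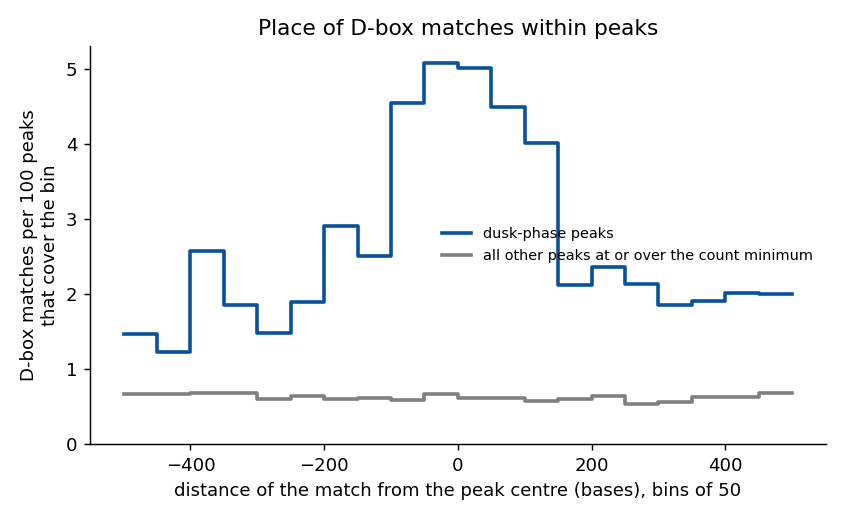
D-box matches per 100 peaks that cover the bin (y axis, from 0) against the distance of the match from the peak centre in bases (x axis, bins of 50). The blue line is the dusk-phase members and the grey line all other peaks with a mean raw count of at least 100. The members reach 5.08 at the centre, and the other peaks stay between 0.536 and 0.684.

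Elements of the DR1 type (12 fixed bases, of which up to 2 could differ) occurred in 7.19% of members, 8.59% of all peaks with a mean raw count of at least 100 and 14.6% of rhythmic peaks with a midday phase. ROR elements (AANTAGGTCA) were in 0.330% of members, 0.586% of all these peaks and 6.19% of rhythmic peaks with a dawn phase. GC-boxes (GGGGCGGGG) were in 0.594% of members against 3.90% of all these peaks, and CRE motifs (TGACGTCA) in 0.0660% against 0.694%. ETS motifs (CCGGAAG) were in 1.32% against 3.89% and E-boxes (CACGTG) in 4.75% against 5.74%. Rhythmic peaks with a midnight phase had 0.949% for GC-boxes, 0.0791% for CRE and 1.03% for ETS. With a dawn phase these shares were 1.75%, 0.952% and 2.06%, and with a midday phase 2.30%, 0.908% and 2.24%. For the other motifs, the share in members over that in all peaks with a mean raw count of at least 100 lay between 0.849 and 1.36. They were DR2, DR4, the half-site AGGTCA, C/EBP (TTGCNNCAA), NFI (TGGCNNNNNGCCA), EBF (TCCCNNGGGA), AP-1 (TGANTCA), STAT (TTCNNNGAA), FOX (GTAAACA), the heat shock element (GAANNTTCNNGAA), MEF2 (CTATTTATA, up to 1 mismatch) and TEAD (CATTCCA). Of the 335 members with a D-box, 5 also held a GRE and 16 a DR1, where 53 and 109 of all 1516 members held these. Whether the motifs occur together less often than unrelated motifs would was not tested.

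The rule left out all peaks with a mean raw count under 100 whatever their phase, so the phase of these peaks played no part in the choice of members. Of 805 such peaks with a D-box in the central 300 bases, 327 (40.6%) had a phase from 9 to below 15 h, against 19.2% of the 13068 without it. For the T form, a split made after the data were seen, the shares were 52.8% of 405 peaks and 19.5% of 13468. For the GRE, 37 of 105 peaks (35.2%) had a phase in this window, against 20.3% of the 13768 without it. For the DR1 the shares were 19.6% of 1908 peaks and 20.6% of 11965.

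Clock genes were among the genes near members. Of 106 peaks within 100 kb of 20 genes of the core clock and clock output, 8 (7.55%) were members, against 2.79% of peaks near any gene. The same 106 peaks held 8 rhythmic peaks with a dawn phase, 14 with a midday phase and 7 with a midnight phase. Near any gene these classes had 513, 1668 and 1073 of 46417 peaks, so a raised share was not particular to members. The list and its background are descriptions, as the list was chosen with earlier results known. In intron 6 of Per2, a repressor of the clock, the counts were 170, 168, 164, 263, 354, 360, 304 and 210, with an amplitude of 0.63 ± 0.05 and a phase of 14.3 h. The 3 libraries of ZT0 to ZT6 lay together and ZT12 and ZT15 were the highest. The member at the start site of Ciart, which encodes a repressor of CLOCK and BMAL1, was earlier (phase 10.5 ± 0.45 h), with counts of 847, 912, 1462, 1764, 1867, 1228, 1024 and 892. An intronic member of Rora, a nuclear receptor of the clock, had counts of 445, 385, 497, 620, 949, 817, 561 and 498, and the member 22533 bases upstream of Nfil3 had 138, 170, 151, 247, 335, 271, 196 and 173.

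The promoter of Ciart lies inside its member and is shown from RefSeq (GRCm38.p6) because it holds 3 E-boxes, the CACGTG element of CLOCK and BMAL1, in capitals. Of 32851 promoters of this length, 7.15% held at least 1 and 0.0883% at least 3.
Ciart, chr3:95882179-95882478, minus strand: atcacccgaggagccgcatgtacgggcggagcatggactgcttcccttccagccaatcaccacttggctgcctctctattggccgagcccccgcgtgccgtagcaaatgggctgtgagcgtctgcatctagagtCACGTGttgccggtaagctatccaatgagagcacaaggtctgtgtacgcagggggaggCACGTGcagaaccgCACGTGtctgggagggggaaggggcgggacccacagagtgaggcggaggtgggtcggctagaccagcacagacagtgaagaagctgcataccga

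Genes that respond to glucocorticoids had the highest share of the 12 lists, with 11 of 86 peaks (12.8%), against 2.79% of peaks near any gene. Of these members, 7 were nearest to Tsc22d3, which encodes the leucine zipper protein GILZ. The same 86 peaks held 7 rhythmic peaks with a midday phase, 2 with a midnight phase and 0 with a dawn phase. Near any gene these classes had 1668, 1073 and 513 of 46417 peaks, so the midday share was raised as well. Tsc22d3 had more members than any other gene, 7 of its 16 peaks with a mean raw count of at least 100 within 100 kb. Akap13 had 6 of 7, Cobll1 5 of 13, Mbnl1 5 of 29 and Dlc1 5 of 49, so that equal counts were different shares of a gene's peaks. The member with its largest amplitude, 34839 bases downstream of a start site, had counts of 155, 108, 161, 236, 466, 327, 268 and 180. The next, 36389 bases downstream, had 321, 224, 337, 511, 913, 632, 520 and 436, and both were highest at ZT12 and lowest at ZT3. Of 17 peaks within 60 kb of this start site, 7 were members and 15 had a phase from 9 to below 15 h. The rule fixed the phase of the 7 members, so only the other peaks add to this count. Among all non-members with a mean raw count of at least 100, 18.7% had a phase in this window. The share was 39.6% for the non-members nearest to any member within 50 kb. Phases of the 7 members ranged from 12.1 to 13.9 h.

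**Figure D5:**
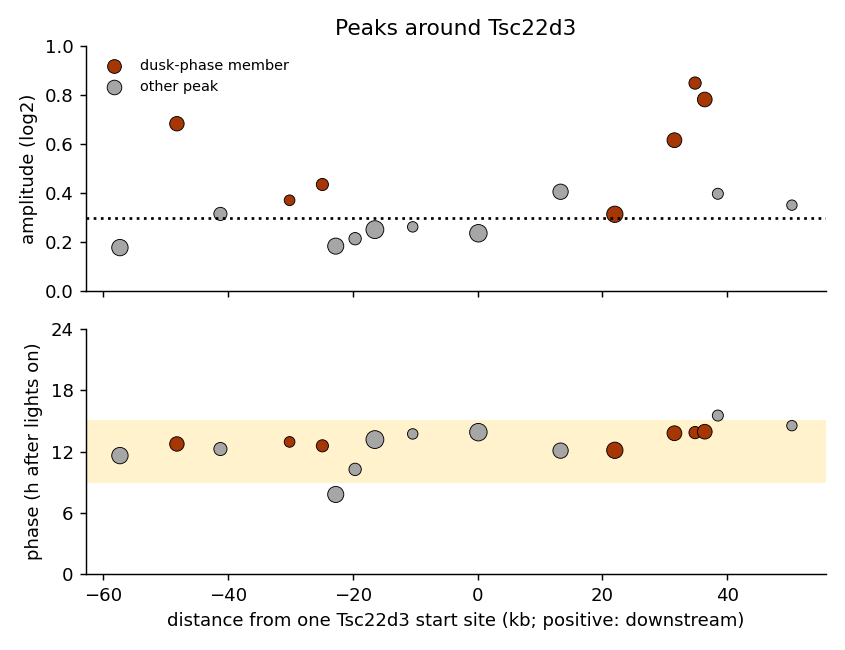
Amplitude on the log2 scale (top) and phase in h after lights on (bottom) of the 17 peaks within 60 kb of a Tsc22d3 start site, against the distance from that site in kb (x axis, positive downstream). Red points are the 7 members, grey points other peaks, point size grows with the mean normalized count, the dotted line is the amplitude of 0.3 and the shaded span the dusk window. Amplitudes reach 0.85 at 34839 bases downstream, and 15 of the 17 phases lie in the window, where the rule placed those of the 7 members.

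The lists of lipid metabolism are given beside the share of 2.79% of peaks near any gene, and their counts are small. No member was found among the peaks near genes of lipoprotein and fatty acid uptake (114 peaks), brown fat thermogenesis and chaperones (30 peaks). Triglyceride synthesis had 4 of 108 (3.70%), 3 near Lpin1, a phosphatidate phosphatase, and 1 near Dgat2, which adds the last fatty acid of triglycerides. At Dgat2 the counts were 992, 1388, 1442, 1885, 2299, 1831, 1320 and 1232, and at the strongest Lpin1 member 1133, 1180, 1619, 1576, 2768, 2006, 1286 and 1336, where ZT12 stood alone. Fatty acid oxidation had 2 of 57 (3.51%). The member upstream of Acadm, the medium-chain acyl-CoA dehydrogenase, had counts of 154, 99.9, 135, 246, 319, 370, 265 and 195 and an amplitude of 0.84 ± 0.09. De novo lipogenesis had 2 of 110 (1.82%) and lipid droplets and lipolysis 1 of 63 (1.59%).

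Glucose uptake and insulin signalling had 6 of 171 (3.51%), with the largest amplitudes of 0.45 near Pdk4, an inhibitor of pyruvate dehydrogenase, and 0.41 in Grb14, an inhibitor of the insulin receptor. Nuclear receptors and coregulators had 7 of 184 (3.80%). In intron 1 of Pparg itself the counts were 142, 159, 177, 217, 271, 249, 222 and 154, and in Nr3c1, the glucocorticoid receptor gene, the larger of 2 members had 216, 185, 246, 294, 387, 408, 291 and 214. Adipokines and secreted factors had 3 of 61 (4.92%). The member of Lep had an amplitude of 0.46 ± 0.12, that of Vegfa 0.36 ± 0.05 with a phase of 9.80 h, and that of Nrg4 0.35 ± 0.04.

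For orientation, the 24-h cosine of edgeR called 8842 of 66066 peaks (13.4%) at an adjusted p under 0.05, and JTK-cycle 6658 (10.1%). Of the members, 1406 (92.7%) and 843 (55.6%) were among these. Both procedures read the same 8 counts as the rule, so the shares say nothing further about the members. JTK-cycle called 5708 peaks (8.64%) and 707 members where equal values of its template were kept as ties.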

How the data were processed

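PPARγ ChIP-sequencing of pooled iBAT was analysed at 8 time points with 1 library each. The input library of ZT12 was not used here. The authors mapped reads to mm10 with BWA (version 0.7.17), called peaks with MACS2 (2.1.2), required a peak in 6 or more libraries, and used HTSeq (1.99.2) for counting. The deposited values are raw counts. How duplicate reads were treated is not given in the sources used here, and it would change the counts.

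Counts were divided by median-of-ratios size factors and fitted on the log2 scale with Python 3.11.15 (numpy 2.4.6). All 66066 peaks were also fitted with edgeR 4.0.16 (quasi-likelihood, TMM, Benjamini-Hochberg) in R 4.3.3 and with a new implementation of JTK-cycle (periods of 21 and 24 h, 15 combinations). Both were tested on simulated data. Peaks were assigned to the nearest of the start sites of 45756 curated RefSeq transcripts of GRCm38.p6, and 20 motifs were searched on both strands. Gene lists use start sites within 100 kb.

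Members, lists and motifs were chosen with earlier results of these data known. The motifs other than DR1, and the split of the D-box by its free base, were chosen after the counts were seen. Named peaks are the 10 members of largest amplitude, the 10 of highest mean, up to 4 per gene list, those of the 5 genes with most members and those at the edges of the rule. Alternatives were 4 other scalings, other thresholds, a pseudocount of 8, a period of 21 h, DESeq2 1.42.0 and each library left out.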

Additional observations from a re-analysis of the deposited data

How the results depend on the processing

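No paired analysis was possible because each time point has 1 library. The rule gave 1430 to 1528 members under the 4 other scalings, and 1233 of the 1516 (81.3%) were members under all of them. It gave 889 with a mean raw count of at least 200 and 901 with an amplitude of at least 0.4, both by construction, and 1473 to 2036 with 1 library left out, where 811 members (53.5%) were kept each time. The edgeR cosine called 3067 (without ZT18) to 11203 (without ZT3) peaks, with 4280 without ZT6, 5609 without ZT9, 5694 without ZT12 and 3730 without ZT15. JTK-cycle with a period of 24 h only called 10251. By construction this setting corrects each peak for fewer combinations, and how much of the rise comes from that was not tested. The DR1 share was 21.2% in whole peaks, against 25.3% of all peaks with a mean raw count of at least 100. With up to 1 mismatch the members' share was 1.12%, and the share of all peaks at this setting is not reported here. The following were chosen after seeing the data. The D-box share was 45.1% in whole peaks, against 14.7% of all these peaks, so that the share in members over that in all peaks was 3.07 in place of 5.70. It was 16.8% at a mean raw count of at least 200, 25.1% at an R2 of at least 0.8, 24.8% at an amplitude of at least 0.4 and 18.2 to 21.5% with 1 library left out. The ratio of the highest to the lowest time point of the mean normalized count was 1.74, and 1.73 with library totals only. Of 288 amplitudes of named peaks under other scalings, 286 moved by less than their SE. With 1 library per time point, the precision is limited by the unknown spread between pools.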
